A study of Mus musculus with 6 samples.

Results

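The R-spondins, the Lgr receptors that bind them and the E3 ubiquitin ligases Rnf43 and Znrf3 form a short signalling branch that sets how much Wnt receptor a cell carries. The 9 genes Rspo1 to Rspo4, Lgr4 to Lgr6, Rnf43 and Znrf3 were chosen by name, and all 9 were found by Ensembl identifier among the 48526 rows of the count table. They were followed in neural progenitor cells grown out of mouse embryonic stem cells (mESCs). The libraries labelled -/- (n = 3) came from a line knocked out for Dmrta2, a Dmrt transcription factor of dorsal telencephalic progenitors, and the libraries labelled flox/flox (n = 3) came from the control line, where a stretch of that gene is flanked by recombinase sites. Each genotype was 1 line, so line and genotype cannot be told apart, and p-values measure the spread between samples of a line.

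Both groups were differentiated in the same medium. The BMP receptor inhibitor LDN193189 (100 nM) and the activin and TGF-beta receptor inhibitor SB431542 (10 µM) were present until day 4, and XAV939 (1 µM), which stabilises Axin and so dampens Wnt signalling inside the cell, until day 6. Hedgehog signalling was inhibited with cyclopamine (1 µM) from day 2 to day 10. Cells were replated on day 5, and RNA was taken on day 8, after XAV939 had been withdrawn.

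R-spondins are secreted proteins that amplify a Wnt signal without starting one. Rnf43 and Znrf3 are transmembrane ligases that mark Frizzled and Lrp receptors for removal from the cell surface. An R-spondin bridges an Lgr receptor and one of these ligases, the ligase is cleared from the membrane, and Wnt receptors accumulate. Rnf43 and Znrf3 are themselves induced by Wnt signalling in many tissues, which closes a negative feedback loop. In the embryonic forebrain R-spondins are known from the cortical hem, the Wnt- and BMP-secreting edge of the dorsal telencephalon.

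Libraries held between 24565560 and 39646793 counts. Dmrta2 itself was counted, in CPM (counts scaled to library size), at 421 ± 16.1 in libraries labelled -/- and 79.8 ± 5.08 in flox/flox libraries (SD, n = 3 each). That count covers the whole gene and checks nothing about the deletion, so each direction given here is that of the libraries labelled -/-. Neural progenitor markers were present in every library, and the 9 listed genes summed to between 3280 and 3548 CPM in libraries labelled -/- and between 3391 and 3908 CPM in flox/flox libraries. Of these, Sox1, Pax6, Hes5, Fabp7 and Notch1 rose and Sox2, Nes and Vim fell. Vim weighed most in the sum. Without it the other 8 genes were higher in libraries labelled -/-, at 1884 to 1931 CPM, against 1595 to 1747 CPM in flox/flox libraries. Of 7 neuron markers 6 rose, beside 17.9% of all tested genes. The list summed to between 2338 and 3945 CPM in libraries labelled -/- and between 1071 and 1952 CPM in flox/flox libraries.

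Rspo1, Rspo2 and Rspo3 fell in the libraries labelled -/-, and so did the receptor Lgr6, while Lgr4 and Lgr5 rose by less and the ligases were not called. Of the 9 genes 8 had enough reads to be tested, 4 fell (Rspo1, Rspo2, Rspo3 and Lgr6) and 2 rose (Lgr4 and Lgr5). Lgr6 had enough reads in the flox/flox libraries alone, so it could enter the test only as a gene that was lower in libraries labelled -/-, and 3 members fell with a filter of 1 CPM in 3 libraries. "Rose" and "fell" denote an adjusted p under 0.05 in edgeR's quasi-likelihood test over the 20549 genes tested. Across all those genes 17.4% fell and 17.9% rose, 35.3% in all, so that calls were common in this comparison. Values of the 2 groups were fully separated for 6 members, against 51.0% of all tested genes. The falls of Rspo1, Rspo2 and Rspo3 were larger than those of most genes. Among the 13844 genes averaging 5 CPM or more, 72 had a lower log2 fold change than Rspo2, 111 a lower one than Rspo1 and 172 a lower one than Rspo3.

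**Figure D1:**
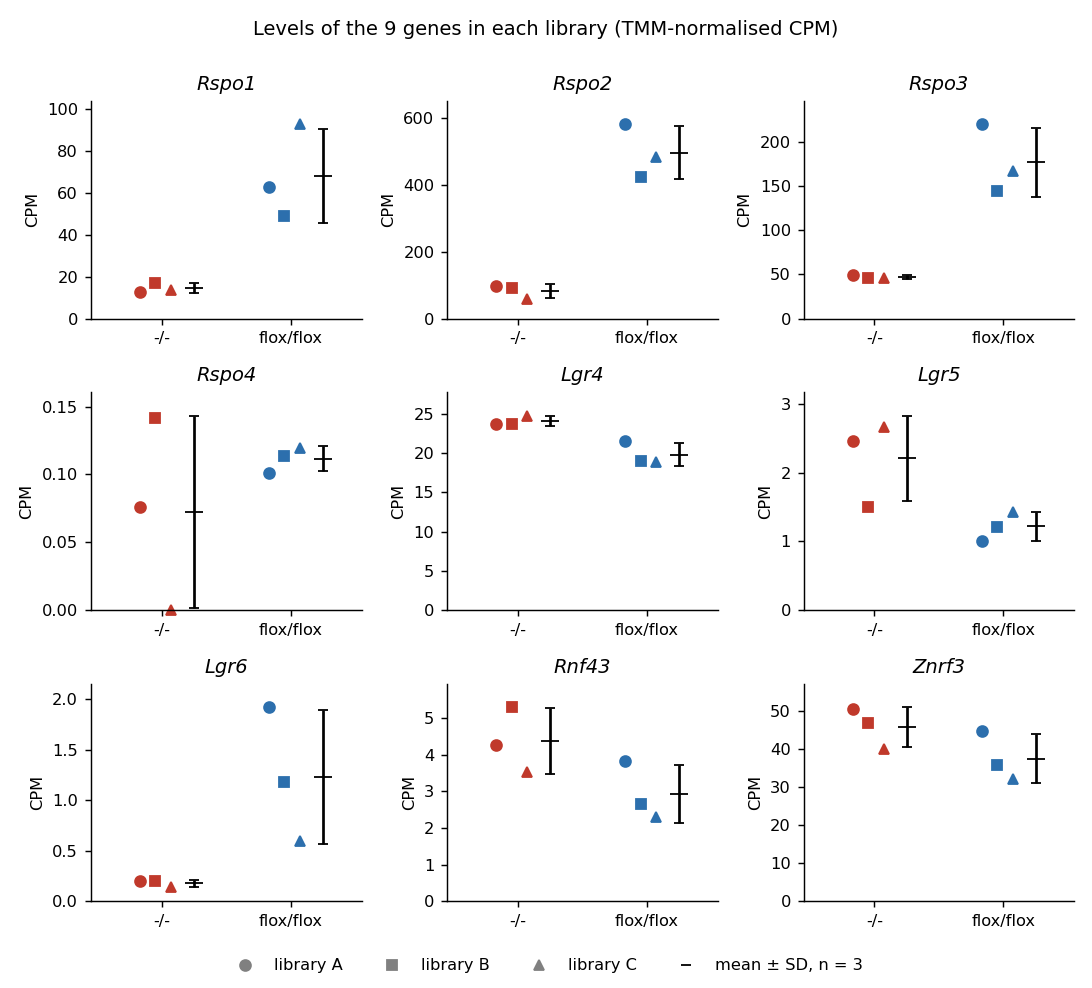
Level in CPM (counts scaled to library size, TMM-normalised, linear axes from 0) of each of the 9 genes in the 3 libraries labelled -/- (red) and the 3 flox/flox libraries (blue). Symbols mark the column letter and black bars the mean ± SD. Rspo1, Rspo2, Rspo3 and Lgr6 were lower in every library labelled -/- than in any flox/flox library, while Lgr4 and Lgr5 were higher and Rnf43 and Znrf3 overlapped between the groups.

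Rspo2, known from mouse mutants for its part in limb and lung development, had the highest level per length of the family in the flox/flox cells. It lies on the minus strand of chromosome 15 (43020794 to 43170826, GRCm38). It measured 96.7, 92.1 and 58.1 CPM in -/- A, B and C, against 581, 424 and 483 CPM in the flox/flox libraries A, B and C. All 3 libraries labelled -/- lay far below the lowest flox/flox library. The log2 fold change was -2.59 ± 0.21 (SE), or 6.02-fold lower in libraries labelled -/-, with an adjusted p of 0.00038 (edgeR). In these bulk libraries fewer cells that make a transcript and less of it per cell cannot be told apart.

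Rspo3, also known from mouse mutants as a factor of vessel and placenta development, lies on the minus strand of chromosome 10 (29452416 to 29535867). It was at 49.7, 45.9 and 45.6 CPM in -/- A, B and C, against 220, 144 and 167 CPM in the flox/flox libraries A, B and C. The libraries labelled -/- lay close together, and flox/flox A stood highest. The log2 fold change was -1.91 ± 0.15 (SE; adjusted p = 0.000359, edgeR). Of its exonic bases 13.1% overlap exons of the gene Gm48159, in a search that took either strand. The strand setting of the counting is not given in the sources used here, so reads of the overlap could belong to either gene or have been left uncounted.

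Rspo1, known in mammals for its part in ovary differentiation, lies on the plus strand of chromosome 4 (124986430 to 125009099), the chromosome that also carries Dmrta2. It was at 12.7, 17.2 and 13.9 CPM in -/- A, B and C, against 62.8, 48.9 and 92.9 CPM in the flox/flox libraries A, B and C. Here flox/flox C was the highest library, whereas flox/flox A was highest for Rspo2 and Rspo3. The log2 fold change was -2.22 ± 0.24 (SE; adjusted p = 0.000753, edgeR). Rspo1, Rspo2 and Rspo3 stayed lower and past the threshold when any library was left out, with log2 fold changes between -2.41 and -1.93, between -2.72 and -2.38, and between -2.04 and -1.72.

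Rspo4, known from human genetics for its role in nail formation, was near the limit of detection. It had 3, 5 and 0 reads in -/- A, B and C and 3, 3 and 3 reads in the flox/flox libraries A, B and C. In -/- C a count of 0 allows up to 0.105 CPM, a limit that covers counting error only, and the flox/flox libraries were at 0.101 to 0.119 CPM. A difference was not detectable at this depth, and the gene was not tested.

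Per kilobase of exon, the scale on which genes can be compared, the 4 R-spondins summed to 41.6, 41.8 and 33.3 RPKM in -/- A, B and C, against 217, 155 and 196 RPKM in the flox/flox libraries A, B and C. The sum was 4.85-fold lower in libraries labelled -/-. The log2 difference of -2.28 had an exact two-sided permutation p of 0.1, the smallest that 3 libraries against 3 allow. Within the sum the balance shifted. Rspo2 supplied 40.9 ± 5.97% of it in libraries labelled -/- and 51.3 ± 2.85% in flox/flox libraries (SD, n = 3 each). Rspo3 supplied 39.5 ± 4.44% in libraries labelled -/- and 30.1 ± 2.65% in flox/flox libraries, and Rspo1 supplied 19.5 ± 3.22% in libraries labelled -/- and 18.5 ± 5.12% in flox/flox libraries. These shares use merged exons, of which Rspo2 has 5112 bases and Rspo3 3090. Their longest transcripts have 3338 and 3085 bases, and on that length the share of Rspo2 is larger in both groups.

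The ratio of Rspo2 to Rspo3 within each library tests whether these 2 genes fell to a different extent. On the log2 scale of read counts it was 0.96, 1.00 and 0.35 in -/- A, B and C, against 1.40, 1.56 and 1.53 in the flox/flox libraries A, B and C. The ratio was lower in 3 of 3 libraries labelled -/-, by 0.72 on average, and -/- C was the lowest. The exact two-sided permutation p was 0.1, so that the design could not take it past 0.05. Without -/- C the difference was -0.51.

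**Figure D2:**
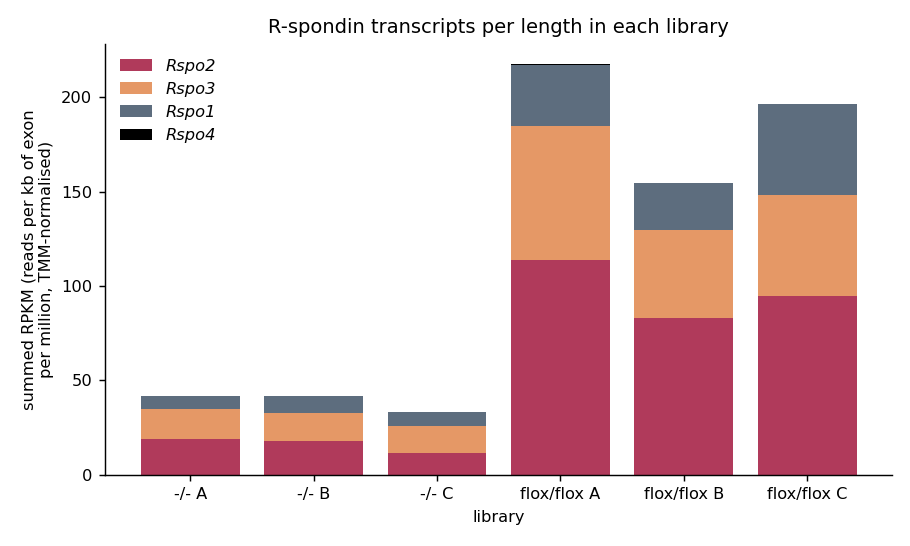
Summed RPKM (TMM-normalised CPM per kilobase of exon) of the R-spondins in each library, stacked by gene on a linear axis from 0. The libraries labelled -/- reach 33.3 to 41.8 RPKM and the flox/flox libraries 155 to 217 RPKM. Rspo4 is too low to be seen.

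Of the receptors, Lgr4 made up nearly all of the Lgr transcripts. The 3 receptors summed to 4.34 ± 0.149 RPKM in libraries labelled -/- and 3.67 ± 0.327 RPKM in flox/flox libraries (SD, n = 3 each). Lgr4 supplied 94.4 ± 1.21% of this in libraries labelled -/- and 91.9 ± 1.40% in flox/flox libraries. The log2 difference of the sum was 0.24 (exact two-sided permutation p = 0.1, the smallest possible). By mean RPKM over merged exons the order of the minor receptors differed between the groups. In flox/flox libraries that order depends on the exon length used. Lgr5 has 10264 merged exon bases and a longest transcript of 4793 bases, where Lgr6 has 6851 and 6675. Their mean CPM in flox/flox libraries was 1.22 (Lgr5) and 1.23 (Lgr6). Lgr5 was at 0.216 ± 0.0608 RPKM and Lgr6 at 0.0264 ± 0.00508 RPKM in libraries labelled -/-, whereas in flox/flox libraries Lgr5 was at 0.119 ± 0.0205 RPKM and Lgr6 at 0.180 ± 0.0971 RPKM, where their ranges overlapped.

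Lgr4, the broadly expressed receptor of the family, lies on the plus strand of chromosome 2 (109917647 to 110014257). It measured 23.7, 23.7 and 24.8 CPM in -/- A, B and C, against 21.6, 19.1 and 18.9 CPM in the flox/flox libraries A, B and C. The groups did not overlap, but the step was small, at a log2 fold change of 0.28 ± 0.08 (SE; adjusted p = 0.0314, edgeR). The call was lost without flox/flox B (adjusted p = 0.115, edgeR), flox/flox C (0.0735), -/- A (0.0610), -/- B (0.0781) or -/- C (0.0575), with log2 fold changes between 0.25 and 0.30. It was kept without flox/flox A (0.34, adjusted p = 0.0214, edgeR).

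Lgr5, a Wnt target and a marker of adult stem cells in the gut and other epithelia, lies on the minus strand of chromosome 10 (115450311 to 115587780). It had 97, 53 and 76 reads in -/- A, B and C, against 30, 32 and 36 reads in the flox/flox libraries A, B and C. These correspond to 2.46, 1.50 and 2.67 CPM in libraries labelled -/- and 1.01, 1.21 and 1.43 CPM in flox/flox libraries, so that -/- B came close to flox/flox C. The log2 fold change was 0.86 ± 0.27 (SE; adjusted p = 0.0413, edgeR). The call was lost without flox/flox A (adjusted p = 0.121, edgeR), flox/flox B (0.113), -/- A (0.110) or -/- C (0.0986), and in limma-voom (0.0627).

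The ratio of Lgr5 to Lgr4 within each library was -3.27, -3.98 and -3.22 (log2 of read counts) in -/- A, B and C, against -4.41, -3.97 and -3.72 in the flox/flox libraries A, B and C. The groups overlapped, since -/- B was the lowest of its group and below flox/flox B. The difference was 0.55 (exact two-sided permutation p = 0.3), and 0.36 without flox/flox A. The larger fold change of Lgr5 was therefore not separated from that of Lgr4.

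Lgr6, a receptor known from hair follicle and skin stem cells, lies on the minus strand of chromosome 1 (134983301 to 135105276) and was the receptor that fell. It had 8, 7 and 4 reads in -/- A, B and C, against 57, 31 and 15 reads in the flox/flox libraries A, B and C. The flox/flox libraries differed widely, from 0.597 CPM in C to 1.92 CPM in A, and each was above the 0.141 to 0.203 CPM of the libraries labelled -/-. The log2 fold change was -2.74 ± 0.49 (SE; adjusted p = 0.00501, edgeR), with values between -3.05 and -2.25 and adjusted p up to 0.0227 (edgeR) when any library was left out. With so few reads in libraries labelled -/-, the gene passed the filter on low counts through the flox/flox libraries alone.

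The annotated promoters of 5 of the 9 genes were in the RefSeq table (GRCm38.p6), and the 250 bases before the start are shown for the 3 of them that were called, Rspo1 and Lgr6, which fell, and Lgr4, which rose. They are Rspo1 at chr4:124986180-124986429 (plus strand), Lgr6 at chr1:135105277-135105526 (minus strand) and Lgr4 at chr2:109917397-109917646 (plus strand), written 5′ to 3′.
Rspo1: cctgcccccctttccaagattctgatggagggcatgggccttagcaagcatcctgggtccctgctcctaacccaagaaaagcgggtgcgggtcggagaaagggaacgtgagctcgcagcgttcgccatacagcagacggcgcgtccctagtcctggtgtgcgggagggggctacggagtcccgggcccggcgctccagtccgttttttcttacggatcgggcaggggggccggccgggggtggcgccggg
Lgr6: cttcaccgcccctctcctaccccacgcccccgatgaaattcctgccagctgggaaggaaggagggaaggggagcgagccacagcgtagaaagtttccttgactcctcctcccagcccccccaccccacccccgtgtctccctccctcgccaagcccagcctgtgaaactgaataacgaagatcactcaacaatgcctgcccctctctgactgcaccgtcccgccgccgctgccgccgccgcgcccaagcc
Lgr4: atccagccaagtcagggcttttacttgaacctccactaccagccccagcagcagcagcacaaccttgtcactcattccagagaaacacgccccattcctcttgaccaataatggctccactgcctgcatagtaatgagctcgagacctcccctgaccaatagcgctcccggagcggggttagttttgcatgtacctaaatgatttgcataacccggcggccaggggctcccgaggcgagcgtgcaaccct
G and C made up 66.8% of the window of Rspo1, 65.2% of that of Lgr6 and 55.6% of that of Lgr4, where the median over 32851 windows was 52.4%. These windows held 22, 16 and 10 CpG dinucleotides in the order Rspo1, Lgr6, Lgr4, where the median was 6. The window of Rspo4, which was not tested, had 69.6% and 24 CpG dinucleotides, and no window was at hand for Rspo2 or Rspo3. Both strands were searched for CTTTGAA and CTTTGAT, versions of the core that TCF/LEF factors bind, and for ACANTGT, the core of the palindrome known for DMRT factors. None of the 3 strings was found in these windows or in those of Rspo4 and Rnf43, so no base is in capitals. Of all windows 4.46% held CTTTGAA, 3.21% CTTTGAT and 6.47% ACANTGT.

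Both ligase genes lie on chromosome 11, Znrf3 on the minus strand (5276324 to 5444847) and Rnf43 on the plus strand (87662722 to 87735539), and neither passed the threshold. Znrf3 measured 50.5, 46.8 and 40.1 CPM in -/- A, B and C, against 44.7, 35.8 and 32.1 CPM in the flox/flox libraries A, B and C. Since -/- C was below flox/flox A, the groups overlapped. The log2 fold change was 0.29 ± 0.14 (SE; adjusted p = 0.142, edgeR).

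Rnf43 had fewer reads, with 168, 187 and 100 in -/- A, B and C, against 113, 70 and 58 in the flox/flox libraries A, B and C. Its level was 4.36 ± 0.895 CPM in libraries labelled -/- and 2.93 ± 0.788 CPM in flox/flox libraries (SD, n = 3 each), and again -/- C was below flox/flox A. The log2 fold change was 0.57 ± 0.23 (SE; adjusted p = 0.0965, edgeR). Without flox/flox A, the highest control library for both genes, Znrf3 and Rnf43 passed (log2 fold changes 0.43 and 0.81, adjusted p = 0.0337 and 0.0363, edgeR). They passed as well in the model blocked on the column letter (adjusted p = 0.0112 and 0.0491, edgeR), where 4 of the 9 members rose and 4 fell, against 21.2% and 20.3% of all tested genes.

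Genes of chromosome 11 were higher in the libraries labelled -/- as a whole, with a median log2 fold change of 0.49 over its 1589 tested genes and -0.02 over all others, and 59.6% of them rose. Both ligases lay within that range, Rnf43 above 59.1% and Znrf3 above 31.8% of the other genes of the chromosome. In -/- A, B and C, Znrf3 was 0.44, 0.33 and 0.11 above the flox/flox mean (log2), where the median of the other chromosome 11 genes was 0.49, 0.50 and 0.48. Rnf43 was 0.57, 0.88 and 0.29 above it. With an offset of 0.516 for the chromosome taken out, the log2 fold change of Rnf43 was 0.06 ± 0.23 and that of Znrf3 turned to -0.23 ± 0.14 (SE; adjusted p = 0.880 and 0.240, edgeR). With both the offset and that block, Znrf3 was at -0.22 and passed (adjusted p = 0.0342, edgeR).

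**Figure D3:**
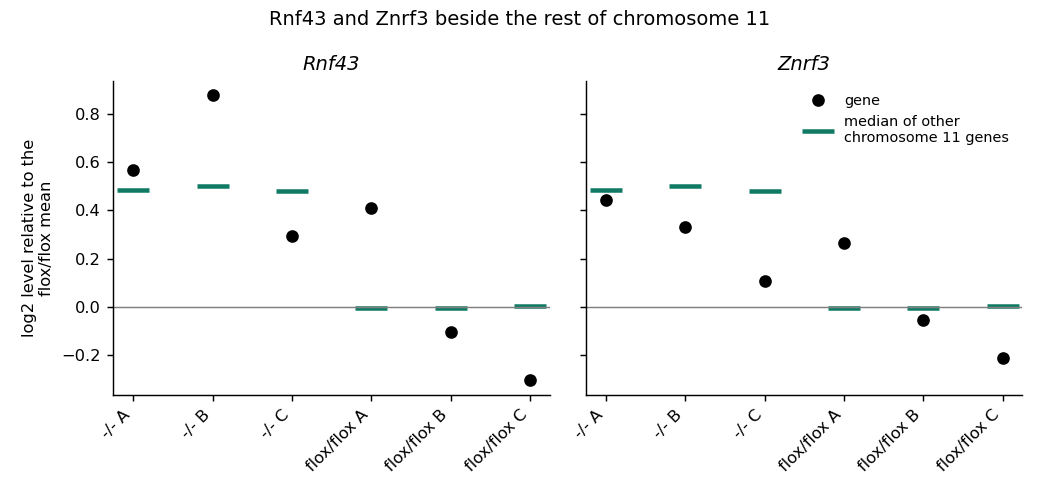
Log2 level of Rnf43 (left) and Znrf3 (right) in each library relative to the flox/flox mean (black points), with the median of the other tested genes of chromosome 11 as green bars. In the libraries labelled -/- the chromosome median was 0.48 to 0.50. Znrf3 lay below it in each of these libraries. Rnf43 lay above it by 0.08 in -/- A and by 0.37 in -/- B, and below it in -/- C.

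Per length the ligases summed to 6.47 ± 0.753 RPKM in libraries labelled -/- and 5.20 ± 0.937 RPKM in flox/flox libraries (SD, n = 3 each), a log2 difference of 0.32 (exact two-sided permutation p = 0.2) that was 0.21 without flox/flox C. Znrf3 supplied 89.7 ± 1.51% of the sum in libraries labelled -/- and 91.5 ± 0.726% in flox/flox libraries. In libraries labelled -/- the members ranked, by mean RPKM, Rspo2 (16.1), Rspo3 (15.2), Rspo1 (7.54), Znrf3 (5.81), Lgr4 (4.09), Rnf43 (0.665), Lgr5 (0.216), Rspo4 (0.0306) and Lgr6 (0.0264). On merged exons the ranges of Rspo2 and Rspo3 overlapped there, and so did those of Rspo4 and Lgr6. The longest transcripts of Rspo2, Lgr5 and Rnf43 are much shorter than their merged exons. On that length the order of the means stayed the same in libraries labelled -/-, and Rspo2 did not overlap Rspo3 there. In flox/flox libraries Lgr5 came above Lgr6 on that length. In flox/flox libraries 3 R-spondins stood far above the rest, at 97.0 for Rspo2, 57.3 for Rspo3 and 35.2 for Rspo1, ahead of Znrf3 (4.75), Lgr4 (3.37), Rnf43 (0.446), Lgr6 (0.180), Lgr5 (0.119) and Rspo4 (0.0470). The ranges of Rspo3 and Rspo1 overlapped in that group, since Rspo1 reached 47.9 RPKM in flox/flox C and Rspo3 was at 46.6 RPKM in flox/flox B.

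**Figure D4:**
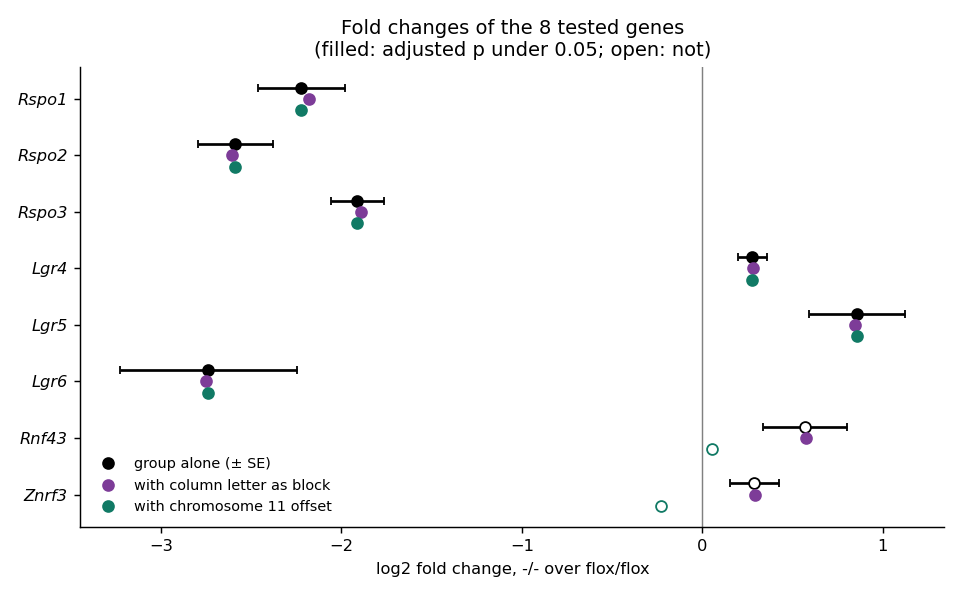
Log2 fold change of the 8 tested genes, libraries labelled -/- over flox/flox, in the model of the group alone (black, ± SE), blocked on the column letter (purple) and with the chromosome 11 offset (green). Filled points have an adjusted p under 0.05. Rspo1, Rspo2, Rspo3, Lgr4, Lgr5 and Lgr6 hardly moved between the models, whereas Rnf43 came to 0.06 and Znrf3 to -0.23 with the offset.

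The receptors that Znrf3 and Rnf43 remove, the Frizzled proteins and their partners Lrp5 and Lrp6, changed less than Rspo1, Rspo2 and Rspo3. Of 12 listed genes 2 rose and 5 fell, beside 17.9% and 17.4% of all tested genes. The median log2 fold change was -0.13, beside -0.0025 over all tested genes. Fzd10 fell to 19.8 ± 2.16 CPM in libraries labelled -/-, against 47.2 ± 4.86 CPM in flox/flox libraries (SD, n = 3 each; adjusted p = 0.000445, edgeR). Fzd6 fell by 0.71, Lrp5 by 0.49, Fzd8 by 0.38 and Fzd3 by 0.21 on the log2 scale. Fzd7 rose by 0.31 and Fzd2 by 0.44. Fzd2 lies on chromosome 11, and with the offset taken out it turned to -0.08 (adjusted p = 0.407, edgeR), so that 1 gene of the list rose. Lrp6, the co-receptor with the higher level per length, was at 10.8 RPKM in libraries labelled -/- and 11.1 RPKM in flox/flox libraries, a log2 difference of -0.05 ± 0.06 (SE) that was not called. Without flox/flox A or without -/- B, 2 genes of the list fell, and 3 fell without flox/flox B or -/- A. In the absence of flox/flox B, of flox/flox C or of -/- B, 1 rose. Blocked on the column letter, Fzd4 passed too and 6 fell.

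Inside the cell, Dishevelled proteins link Frizzled to Rnf43 and Znrf3 and to the Axin complex that destroys beta-catenin. Of 13 such signal transducers 5 rose and 3 fell, beside 17.9% and 17.4% of all tested genes, with a median of 0.17. Those that rose were Dvl2 (0.79), Tcf7l2 (0.52), Apc (0.52), Dvl3 (0.25) and Gsk3a (0.18). Dvl2 lies on chromosome 11, and with the offset its log2 fold change was 0.28 (adjusted p = 0.0147, edgeR). Lef1, a nuclear partner of beta-catenin, fell to 27.9 ± 1.96 CPM in libraries labelled -/-, against 41.5 ± 1.83 CPM in flox/flox libraries (SD, n = 3 each), and Tcf7l1 and Csnk1a1 fell by 0.48 and 0.25 on the log2 scale. Ctnnb1, the gene of beta-catenin, averaged 1340.2 CPM in libraries labelled -/- and 1468 CPM in flox/flox libraries, a difference that did not pass (adjusted p = 0.103, edgeR). When flox/flox B or -/- B was left out, 3 transducers rose and 1 fell, and 3 rose without flox/flox A. In the blocked model Dvl1 and Gsk3b passed as higher and Tcf7 as lower, so that 7 rose and 4 fell.

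Feedback targets of the pathway were lower or did not pass, except for Dkk1. Of 8 genes 3 fell (Sp5, Apcdd1 and Wif1) and 1 rose, beside 17.4% and 17.9% of all tested genes, with a median of -0.70. Wif1, a secreted Wnt inhibitor, had 3, 4 and 2 reads in -/- A, B and C, against 49, 21 and 18 in the flox/flox libraries A, B and C. Like Lgr6 it had enough reads for the test in the flox/flox libraries alone, and 2 genes fell with the filter of 1 CPM. Dkk1, a secreted antagonist that blocks Lrp co-receptors, was at 5.32 CPM in libraries labelled -/- and 2.43 CPM in flox/flox libraries (adjusted p = 0.0182, edgeR). Sp5, a transcription factor induced directly by Wnt, was at 3.95 ± 1.41 CPM in libraries labelled -/- and 15.4 ± 9.45 CPM in flox/flox libraries (SD, n = 3 each; adjusted p = 0.0131, edgeR). Axin2, on chromosome 11 like the ligases, averaged 104 ± 23.5 CPM in libraries labelled -/- and 161 ± 58.4 CPM in flox/flox libraries (SD, n = 3 each), below the threshold for a call (log2 fold change -0.64 ± 0.27, SE; adjusted p = 0.108, edgeR). Blocked on the column letter, Axin2, Nkd1 and Nkd2 passed too and 6 genes fell. With the chromosome 11 offset 5 fell, the added genes being Axin2 (-1.15) and Notum (-0.68). Without -/- B the number was 1 and without flox/flox C it was 5, and Dkk1 was not called without flox/flox B or -/- B.

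Heparan sulphate proteoglycans can bind R-spondins at the cell surface, and Rspo2 and Rspo3 are known to act through them when Lgr receptors are missing. Of 6 listed core proteins 4 fell and 0 rose, beside 17.4% and 17.9% of all tested genes, with a median of -0.95. Gpc4 fell to 114 ± 32.1 CPM in libraries labelled -/-, against 285 ± 57.7 CPM in flox/flox libraries (SD, n = 3 each), and Sdc2, Gpc3 and Sdc4 fell by 1.40, 1.37 and 0.58 on the log2 scale. Sdc1 and Sdc3 did not pass (-0.34 and 0.32). In the blocked model both passed, Sdc1 as lower and Sdc3 as higher.

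**Figure D5:**
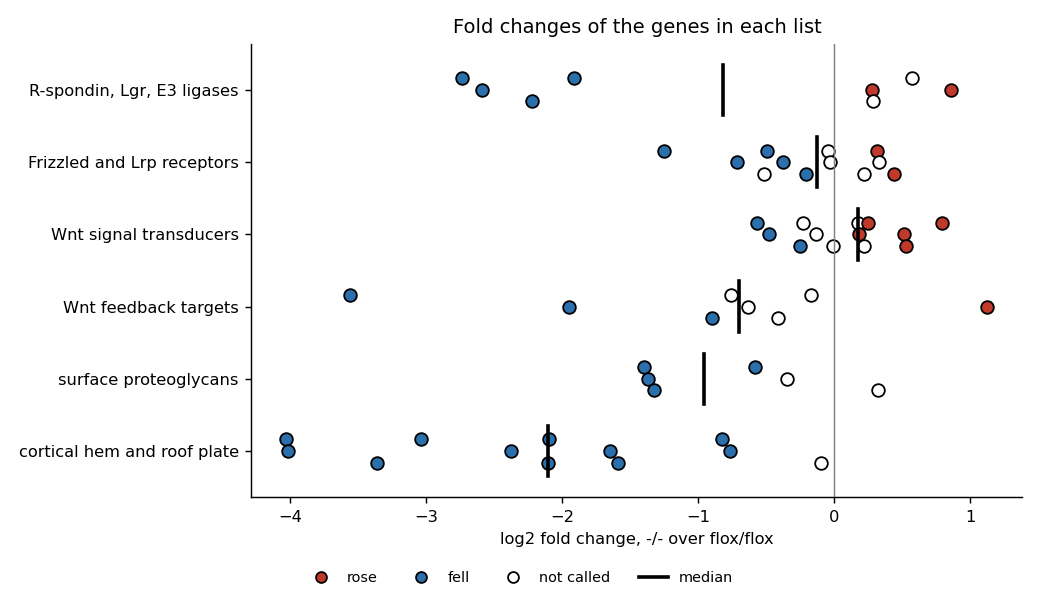
Log2 fold change (libraries labelled -/- over flox/flox) of each tested gene in 6 lists, 1 point per gene, coloured red where it rose, blue where it fell and white where it was not called, with the median of each list as a bar. Rspo1, Rspo2, Rspo3 and Lgr6 form the group at -2.74 to -1.91 in the top row, and the cortical hem list lies furthest to the left.

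Genes of the cortical hem and roof plate, where R-spondins are made in the embryo, moved in the same direction as Rspo1, Rspo2 and Rspo3. Of 12 such genes 11 fell, beside 17.4% of all tested genes, and Wnt2b was not called (-0.10). Among those that fell were Lmx1a (-3.04), Bmp6 (-3.36), Bmp7 (-2.10) and Wnt8b (-2.38). The list summed to between 138 and 177 CPM in libraries labelled -/- and between 538 and 1046 CPM in flox/flox libraries. Of 4 tested choroid plexus markers 2 fell, and the list of 5 summed to between 5.63 and 12.7 CPM in libraries labelled -/- and between 50.4 and 86.5 CPM in flox/flox libraries. Without Folr1 the sums were 2.95 to 5.08 CPM in libraries labelled -/- and 9.83 to 38.2 CPM in flox/flox libraries. Ttr was not called and had 248, 19 and 10 reads in the flox/flox libraries A, B and C. Flox/flox A had the highest sum in both lists, as it did for Rspo2, Rspo3 and Lgr6. Of 3 endothelium markers 1 fell, and they summed to between 8.12 and 19.3 CPM in libraries labelled -/- and between 56.5 and 89.2 CPM in flox/flox libraries. Most of that difference was Kdr, at 4.07 CPM in libraries labelled -/- and 53.4 CPM in flox/flox libraries. Pecam1 and Cdh5, which overlapped between the groups and were not called, together came to between 5.24 and 13.0 CPM in libraries labelled -/- and between 10.6 and 28.1 CPM in flox/flox libraries. Pluripotent cell markers, of which 2 of 5 fell, summed to between 57.8 and 80.2 CPM in libraries labelled -/- and between 92.8 and 100.3 CPM in flox/flox libraries. Neural crest markers, of which 3 of 5 tested rose and 1 fell, summed to between 69.1 and 128 CPM in libraries labelled -/- and between 54.8 and 59.2 CPM in flox/flox libraries. Most of that sum was Tfap2b. Without it the sums were 21.5 to 25.5 CPM in libraries labelled -/- and 18.6 to 21.3 CPM in flox/flox libraries. Mesoderm and endoderm markers, of which 3 of 8 rose and 1 fell, summed to between 133 and 155 CPM in libraries labelled -/- and between 77.6 and 119 CPM in flox/flox libraries. Eomes, also a gene of cortical intermediate progenitors, carried that difference. Without it the sums overlapped, at 36.0 to 61.6 CPM in libraries labelled -/- and 45.1 to 62.9 CPM in flox/flox libraries. Fibroblast or mesenchyme markers, of which 1 of 6 rose and 1 fell, had overlapping sums. These were 85.4 to 134 CPM in libraries labelled -/- and 65.7 to 165 CPM in flox/flox libraries. Among 3 tested glia markers 0 were called. The glia list of 5 summed to 6.12 to 7.91 CPM in libraries labelled -/- and 3.07 to 6.53 CPM in flox/flox libraries. No gene of these lists was at 0 in all libraries. The part of these cell types, or of the neurons given above, in the R-spondin result was not tested.

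Genes with the most similar profile were sought for each member averaging 1 CPM or more. The measure was the root mean square distance of log2 CPM over the 6 libraries, each gene centred on its own mean, among named genes averaging 5 CPM or more. Rspo2 was nearest to Adamts17 (0.154), Trp73 (0.163) and Large2 (0.169), where the median distance of all candidates was 1.34. Rspo3 was nearest to Camk1d (0.106), Fblim1 (0.138) and Plxdc2 (0.144), with a median of 0.975. Rspo1 had no neighbour as close, with Arhgef16 at 0.270, Bmp2 at 0.303 and Tent5c at 0.303 against a median of 1.14. Lgr4 was nearest to Mettl26 (0.0176), Lgr5 to Fmn2 (0.185) and Znrf3 to Ctbs (0.0367). The neighbours of Rnf43 were Tcn2 (0.0789) and Naglu (0.115), both on chromosome 11, and Egflam (0.134).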

How the data were processed

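The authors deposited raw read counts per Ensembl gene, 1 column for each of 6 libraries, made with BWA 0.5.9 and featureCounts 1.4.6 on mm10 (GRCm38), per the submitters' processing notes. Libraries were made from 1 µg of RNA with a stranded mRNA kit, per the labels' protocols. The deposited table's label says that duplicates were marked. For the annotation release, the strand setting and the counting of duplicates or of reads with several hits, nothing is given in the sources used here. Column names give a genotype and a letter, not the replicate number, so columns were assigned to groups. All 6 were used. Replicates are described as biological, and the labels do not say what was separate between them.

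Symbols, positions and exon lengths came from GENCODE M21 (48144 of 48526 identifiers had a symbol). Counts were tested with edgeR 4.0.16 (R 4.3.3; glmQLFit and glmQLFTest, two-sided) on the group alone, after filterByExpr (minimum count 10, minimum total 15) and TMM scaling, with Benjamini-Hochberg adjustment over 20549 genes. The SE is the log2 fold change divided by the square root of F. The test was checked on simulated counts with the same dispersion for every gene and few changed genes, as many raised as lowered. That check did not include the many changed genes or the chromosome 11 shift of these data. RPKM is TMM-normalised CPM per kilobase of merged exons, and per-library log2 levels used a pseudocount of 0.05 CPM. Single values were tested by exact permutation over libraries.

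Libraries with the same column letter deviated together from their group means (correlations 0.275, 0.101 and 0.264 for A, B and C), so the letter was also fitted as a block, although the correlation for B barely passed the limit of 0.1 and the labels do not say what a letter shares. Other alternatives were DESeq2 1.42.0, limma-voom (limma 3.58.1), other scalings and filters, each library left out, a threshold of 0.01 and a chromosome 11 offset. The named genes were the 9 members, Dmrta2, listed genes ordered by adjusted p, Frizzled and Lrp genes also by level, and up to 3 nearest profiles per member. Fzd6, Gsk3a, Notum, Ctnnb1, Axin2, Nkd1, Nkd2, Sdc1, Sdc3, Fzd4, Dvl1, Gsk3b, Tcf7, Eomes, Kdr, Pecam1, Cdh5, Wnt2b, Folr1, Ttr and Tfap2b were added after their values were seen, as were marker sums without 1 gene. The members and lists were chosen with earlier results of these data known.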

Additional observations from a re-analysis of the deposited data

How the results depend on the processing

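Rspo1, Rspo2 and Rspo3 kept direction and call under all 16 alternatives. Lgr6 was tested in 15, since the filter of 1 CPM in 3 libraries removed it, and was called as lower in each. With the low-count filter it entered through the flox/flox libraries alone, so those fits fixed its direction in advance and add no support. With no low-count filter its log2 fold change was -2.72 (adjusted p = 0.00124, edgeR). Between the scalings the median of all tested genes moved by less than 0.1 (log2). With the chromosome 11 offset Znrf3 reversed, to -0.23 alone and -0.22 with the block. Members that rose numbered 2, but 1 in limma-voom, 4 with the replicate block, 0 at a threshold of 0.01 and 0 to 3 when a library was left out, 0 of them without flox/flox B, -/- A or -/- C. At 0.01, 1992 genes rose and 1895 fell over the whole table, and leaving out a library gave 2315 to 3510 and 2342 to 3336. The lowest of these were without flox/flox B and without -/- B.

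For Frizzled and Lrp receptors, 1 rose with the offset, alone or with the block, and at 0.01, where 2 fell, and leaving out a library gave 1 to 3 rising and 2 to 5 falling. For signal transducers, 3 rose and 1 fell at 0.01, with 3 to 5 and 1 to 3 when a library was left out. For feedback targets 5 fell in DESeq2, 6 with the block, 5 with the offset and 7 with both, while 1 fell and 0 rose at 0.01, and leaving out a library gave 1 to 5 falling and 0 to 1 rising. For proteoglycans 1 rose with no low-count filter and with the block, with or without the offset, and 0 to 1 when a library was left out. For cortical hem and roof plate genes 8 fell at 0.01, and 8 to 11 when a library was left out. The block changed no other call among the members. The summed levels and ratios kept their sign in every alternative run, where no p could pass 0.05. Apart from the filters and thresholds, the cause of these changes was not tested. Depth limits Rspo4 and Lgr6, which had at most 5 and 57 reads in a library.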
